A study of Mus musculus with 127 samples.

Results

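Imprinted genes at 8 places of the mouse genome, each taken as a stretch of 1 Mb around a leading gene, were followed through the positions that serial slicing gave them in single embryonic stem cell nuclei. The regions are named here by that gene (Peg3, Snrpn, H19, Meg3, Igf2r, Peg10, Mest and Slc38a4). Each was set by coordinates, as all 10 kb windows whose start lies in the stretch. The choice was made with earlier results of these data known. The 8 regions hold 800 windows of the mm10 build. Over 10 cells and 20 files they gave 4417 of the 1222168 located windows.

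The series used sequential genome architecture mapping, in which a nucleus is cut into serial slices (nuclear profiles), the DNA in every slice is amplified and sequenced, and a stretch of genome is then placed along the cutting axis. The cells were F123, a mouse embryonic stem cell line of the hybrid background CAST x 129, grown with LIF and moved off MEF feeder cells by passaging before use, with no treatment. Batch B16F supplied 4 cells (Cell17 to Cell20) and batch B18F 6 cells (Cell25 to Cell28, Cell38 and Cell39), 122 profiles in all, and 5 further control samples had no file of positions. Each cell has a file 0 and a file 1, and what separates them is not given in the sources used here, so neither file can be called a parental copy.

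In an imprinted cluster, genes are transcribed mainly from the copy inherited from the mother or mainly from the copy inherited from the father. The choice is set by DNA methylation laid down in the egg or sperm at an imprinting control region and kept after fertilisation, with help from the zinc finger protein ZFP57, which binds the methylated form of its motif. In embryonic stem cells imprints are usually kept but can be lost in culture, and the files measure neither methylation nor transcription.

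The regions differ in their genes. Coordinates and gene counts are those of RefSeq on GRCm38.p6, whose primary chromosomes are those of mm10, and 37 of 41 listed genes of imprinted clusters lay wholly inside a region. The Peg3 region (chr7:6200001-7200000) holds Peg3 (chr7:6703892-6730462), which encodes a zinc finger protein made from the paternal copy, its neighbours Usp29, Zim1 and Zim2, and 9 olfactory receptor genes. The Snrpn region (chr7:59500001-60500000) holds Snrpn (chr7:59982495-60450177), which encodes a splicing protein, with Snurf on the same transcript and the long noncoding RNA gene Ipw. It has 2 protein-coding genes, against a median of 9 per Mb on chromosome 7, and 133 small nucleolar RNA (snoRNA) genes, which lie here in tandem arrays. Many snoRNAs guide chemical modification of other RNAs, but targets of these 133 were not examined. The H19 region (chr7:142100001-143100000) holds the maternally transcribed noncoding gene H19 (chr7:142575530-142578146) and the paternally transcribed growth factor gene Igf2 (chr7:142650768-142666816), along with Ins2 (insulin), Ascl2, Th, Tspan32 and Cd81 among 30 protein-coding genes.

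The Meg3 region (chr12:109000001-110000000) holds the maternally transcribed noncoding genes Meg3 (chr12:109540996-109571729), Rian and Mirg, the paternally transcribed Dlk1 and Rtl1, and Begain. It has 3 protein-coding genes and 57 annotated miRNA hairpins. The Igf2r region (chr17:12200001-13200000) holds Igf2r (chr17:12682406-12769706), the receptor that clears the growth factor of Igf2, the antisense noncoding gene Airn that silences it on the paternal copy, and the organic cation transporter genes Slc22a2 and Slc22a3. The Peg10 region (chr6:4200001-5200000) holds Peg10 (chr6:4747306-4760517), a retrotransposon-derived gene, Sgce, Casd1, Ppp1r9a and Pon1. The Mest region (chr6:30200001-31200000) holds Mest (chr6:30733506-30748466), a paternally transcribed gene of the hydrolase fold, with Copg2, Klf14 and Cpa4. The Slc38a4 region (chr15:96500001-97500000) holds the amino acid transporter genes Slc38a4 (chr15:96994816-97055956), Slc38a2 and Slc38a1.

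Promoter sequences from the RefSeq table of GRCm38.p6 are shown for Snrpn, Meg3 and Mest, the leading genes of the regions on which the comparisons turn. Each run covers 250 bases before an annotated start and 10 bases from it, 5′ to 3′ on the gene's strand. Capitals mark the 6 bases TGCCGC, the core of the ZFP57 motif, or their reverse complement GCGGCA, and no other motif was searched. Where a gene has several starts, the start with the most matches is shown. The Snrpn start is also that of Snurf.
Snrpn, chr7:60005190-60005449, minus strand: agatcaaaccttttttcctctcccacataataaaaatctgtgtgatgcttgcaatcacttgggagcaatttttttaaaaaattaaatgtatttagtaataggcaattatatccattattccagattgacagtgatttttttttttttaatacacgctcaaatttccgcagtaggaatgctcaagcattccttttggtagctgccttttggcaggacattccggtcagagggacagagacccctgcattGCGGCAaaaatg
Meg3, chr12:109540746-109541005, plus strand: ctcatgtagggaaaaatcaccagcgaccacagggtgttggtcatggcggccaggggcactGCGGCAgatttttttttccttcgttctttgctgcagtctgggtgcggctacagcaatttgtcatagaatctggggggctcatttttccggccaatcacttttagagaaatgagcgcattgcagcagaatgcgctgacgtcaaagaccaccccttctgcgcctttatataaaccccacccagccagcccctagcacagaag
Mest, chr6:30737800-30738059, plus strand: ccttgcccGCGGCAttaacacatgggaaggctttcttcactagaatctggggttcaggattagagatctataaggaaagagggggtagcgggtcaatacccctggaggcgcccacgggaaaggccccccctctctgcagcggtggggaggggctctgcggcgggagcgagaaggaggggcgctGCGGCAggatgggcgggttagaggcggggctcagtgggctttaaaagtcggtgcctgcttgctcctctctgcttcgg

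The motif occurred once in the Snrpn and Meg3 runs and 2 times in the Mest run. Over promoters of 300 bases, 10 of 46 entries of the listed genes held it on either strand, which covers 29 genes. Of all 32851 promoters of the table, 11.6% did. Several entries belong to the same gene and overlap, so the share is a description, and a match is not a bound site. Among the listed genes without an entry were H19, Ins2, Rtl1, Peg10, Sgce, Klf14 and Slc38a1.

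The windows of gene starts were located about as often as others by the median, and less often by the mean. The 35 distinct windows that hold an annotated start of a listed gene appeared in a median of 5 of the 20 files, as did the reachable windows of the 5 chromosomes, a window being reachable if at least 1 file lists it. The mean was 4.69 files for the start windows, which were not limited to reachable ones. It was 5.01 for the reachable windows and 5.52 for all windows of the 8 regions. The start shared by Snrpn and Snurf, the sequence printed above, fell in a window that was listed in 1 file of 20. The start windows of Meg3 and Mest were listed in 4 and 7 files. The window shared by the starts of Peg3 and Usp29 was in 6 files, that of Igf2r in 7 and that of Airn in 4. Igf2 has several starts, in windows listed in 5 and 9 files.

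Over the whole span of a gene, files listed between 11.4% (Rian) and 47.5% (Slc38a1) of the possible window and file combinations. The only window of H19 was listed by 6 of 20 files, in 4 cells, and both windows of Igf2 gave 35.0% of combinations, in 8 cells. Igf2r was reached in 10 of 10 cells (25.6% of combinations), Mest in 7 (37.5%), Meg3 in 6 (28.8%), Slc38a4 in 6 (21.4%) and Peg3 in 5 (18.8%). The files hold no read counts, so how deeply a window was read is not known, and a gene absent from a cell's files cannot be told apart from one that was not sampled.

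Coverage was compared first: the share of a region's reachable windows that a file listed, averaged over both files of a cell. A window listed in both files counts in each, so coverage is not the share of distinct windows located in a cell. With the files added, the cells located between 262 (Cell20) and 754 (Cell25) windows in the 8 regions, with a median of 421. Coverage of the Slc38a4 region was 34.2% ± 23.7 (SD, n = 10 here and for the other regions), from 4.50% in Cell39 to 74.5% in Cell28, the widest range of the 8. The H19 region had 28.8% ± 16.1, the Snrpn region 28.8% ± 7.93, the Mest region 28.6% ± 19.9 and the Peg3 region 28.1% ± 17.02. The Igf2r region had 26.3% ± 13.003, the Meg3 region 25.96% ± 17.1 and the Peg10 region 25.7% ± 15.3.

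Relative to the rest of its chromosome in the same cell, the Snrpn region was located 1.29 ± 0.36 times as often, from 0.845 in Cell28 to 2.10 in Cell39, and above the rest in 8 of 10 cells. The Slc38a4 region had the same mean ratio with a wider spread, 1.29 ± 0.61, from 0.398 in Cell39 to 2.13 in Cell25. The mean ratios of the other regions ran from 0.982 ± 0.353 (Peg10) to 1.25 ± 0.66 (H19). The highest value of H19, 2.92, and of Mest, 2.89, both came from Cell39, the cell with the fewest located windows in the series (56975).

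**Figure D1:**
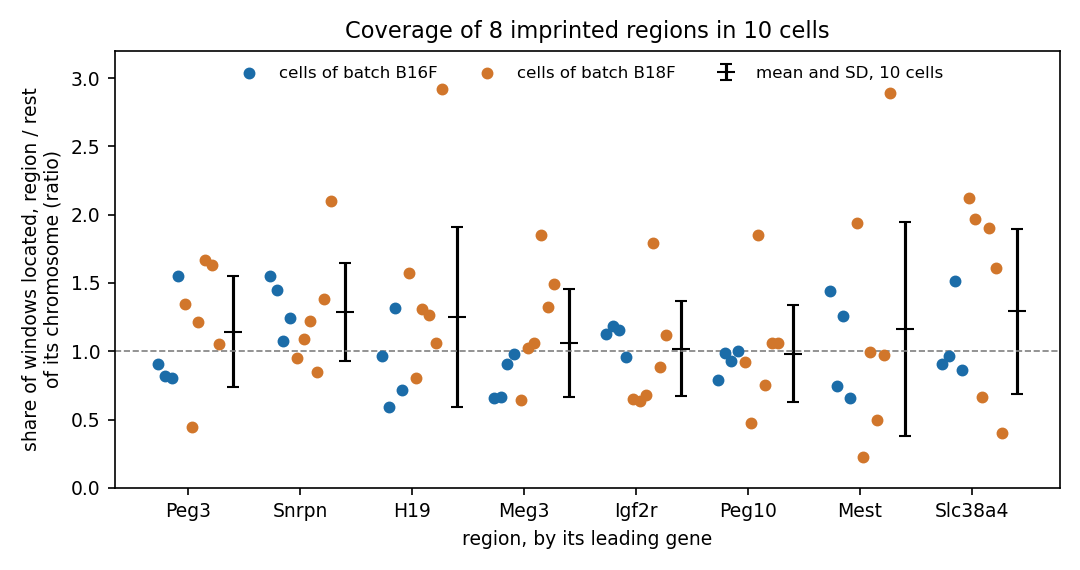
Each point is 1 cell, coloured by batch, and gives a region's coverage divided by that of the rest of its chromosome (y axis, ratio, with a dashed line at 1). Coverage is averaged over the files of the cell. The mean and SD of 10 cells are in black beside the points. The Snrpn points lie between 0.845 and 2.10, while those of Mest and Slc38a4 spread from 0.229 and 0.398 up to 2.89 and 2.13.

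For a test, each region was ranked in each cell among the other 1 Mb tiles of its chromosome, and the percentile was compared with 50, the middle, by an exact two-sided sign-flip permutation test over cells. The Snrpn region was the only one of 8 with an unadjusted p under 0.05. Its coverage stood at percentile 77.0 ± 18.9, and 9 of 10 cells were above 50 (exact p = 0.00586; 0.169 when adjusted over all 2387 tiles). Of all tiles, 13% passed in either direction and 7.04% upward, so 1 of 8 is near the background. The other regions had mean percentiles from 47.0 (Peg10) to 62.4 (Peg3).

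The high coverage of the Snrpn region lay in windows that hold snoRNA genes, though not evenly among them. The 34 windows that hold a snoRNA gene had a coverage, averaged over the files as above, of 41.6% ± 10.1 (n = 10), from 27.9% in Cell39 to 55.9% in Cell26. The 57 other reachable windows had a coverage of 21.1% ± 8.31, from 9.65% in Cell39 to 32.5%. The snoRNA windows were ahead in 10 of 10 cells, with the smallest gap in Cell17 (36.8% against 31.6%). With windows holding snoRNA genes left out of all tiles, a setting chosen after the data were seen, the Snrpn region stood near the middle of its chromosome, at percentile 48.1 ± 32.2, with 4 of 10 cells above 50 (exact p = 0.863).

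Windows located again and again were frequent in part of the arrays. All snoRNA windows listed by at least 10 files lay from about -335 to -95 kb of the shared Snrpn and Snurf start. Of the 34 snoRNA windows, 14 (41.2%) were listed by at least 10 of 20 files and 10 (29.4%) by at least 1 file of every cell. The other windows of the region had 10.5% and 5.26%, and the rest of chromosome 7 had 6.06% and 1.38%. Windows with snoRNA genes elsewhere on the 5 chromosomes were like other windows, with 6.78% in at least 10 files. The arrays also lay less often on the grid of slice positions, whose step is 0.2 axis units: 55.1% of the snoRNA windows' positions were on the grid, against 62.2% in the other windows of the region and 71.2% in the rest of chromosome 7. When positions between grid steps were left out, the Snrpn region had percentile 58.8 (exact p = 0.439). The arrays consist of near-identical repeats, and how reads that match several of them were treated is not given in the sources used here. Its part in the result was not tested.

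**Figure D2:**
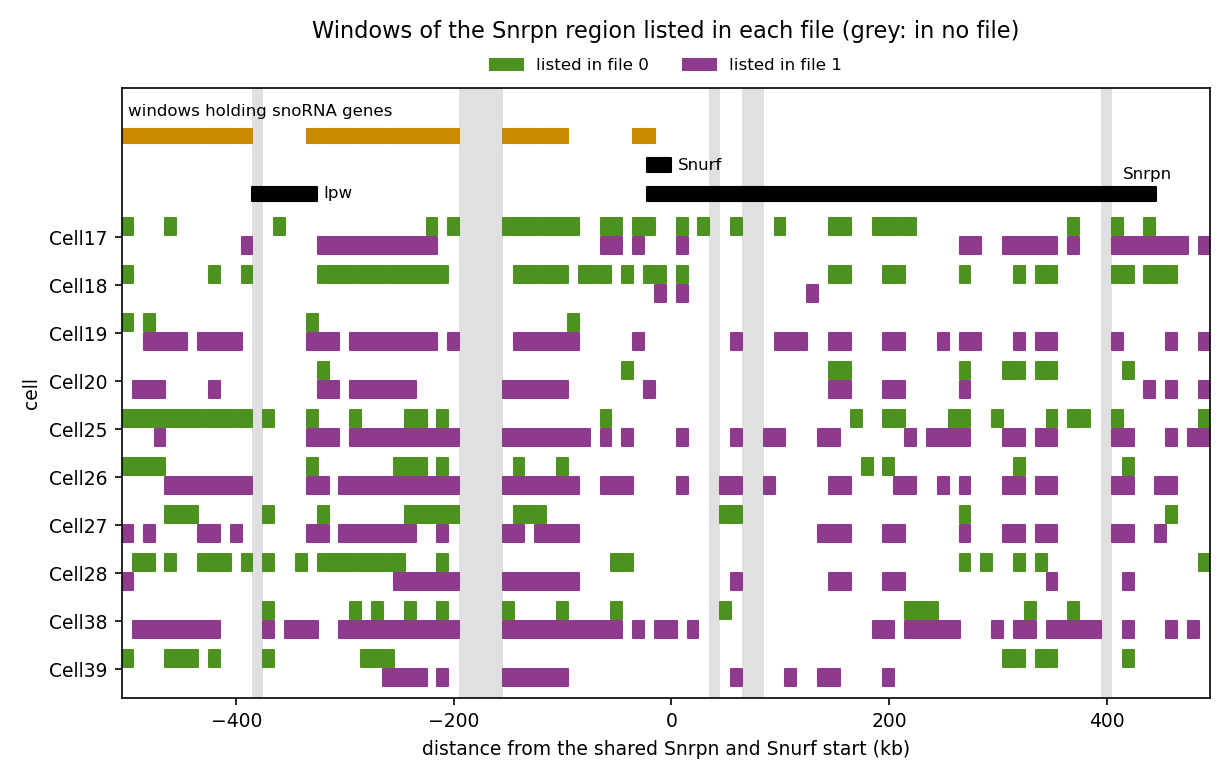
The 1 Mb Snrpn region is drawn by distance in kb from the shared start of Snrpn and Snurf (x axis), with 2 rows of bars per cell for the windows listed in file 0 and file 1. Gold marks the 34 windows with snoRNA genes and grey the 9 windows in no file. Black marks the spans of Ipw, Snurf and Snrpn. Bars recur from cell to cell under the gold marks from about -335 to -95 kb. They recur less under the other gold marks and are sparse at the start itself.

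Slc38a4 was the other region with many recurrent windows. Of its 100 windows, all reachable, 18 were listed by at least 10 files (18%, against 6.55% in the rest of chromosome 15), but only 2 were listed in every cell. The other 6 regions had 5 to 7 such windows each.

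The share of windows in file 1 was then compared with that of the rest of the chromosome, as a measure of imbalance between files. File 1 held 60.6% ± 23.6 of the Snrpn windows per cell (n = 10), from 6.98% in Cell18 to 91.7% in Cell19, against 62.1% ± 10.7 in the rest of chromosome 7. Its share was lowest for Peg3 (55.1% ± 16.5) and highest for Peg10 (69.6% ± 20.8). The distance from the chromosome's own share was past the threshold in 0 of 8 regions at an unadjusted p under 0.05 (exact sign-flip test; background 6.79% of tiles), with mean percentiles from 43.8 (Meg3) to 57.4 (Slc38a4).

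Some regions sat almost wholly in 1 file of a cell. Of 80 combinations of region and cell, 7 (8.75%) had at least 90% of their windows in the same file, against 11.1% of the other tiles of these chromosomes. In Cell18 the Snrpn region had 40 windows in file 0 and 3 in file 1, although the H19 region of the same chromosome had 0 and 19. In Cell19 the Snrpn windows were split 4 and 44, the other way round. The Peg10 region was nearly all in file 1 in Cell18 (1 and 44), Cell19 (1 and 41) and Cell38 (3 and 35). In Cell38 the Igf2r region had 4 and 38. Such tiles made up 41.1% of the other tiles in Cell18, 25.8% in Cell38 and 11.7% in Cell19, whereas Cell27 and Cell28 had none among 581 tiles each.

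Windows listed in both files of a cell numbered 954 in the 8 regions, 1.30 times the 734.6 expected from the files' counts within each region and cell, and the rest of the same chromosomes had 1.36 times the expected number. The Snrpn region stood lowest with 60 windows against 62.2 expected, a ratio of 0.965, while the rest of chromosome 7 had 1.36. The other regions ranged from 1.26 (Slc38a4) to 1.42 (Peg10).

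File sharing had 2 of 8 regions with an unadjusted p under 0.05, where 23.7% of all tiles passed, so this count too is near the background. The Snrpn region shared fewer windows than other tiles, at percentile 24.5 ± 26.1 and below 50 in 9 of 10 cells (exact p = 0.0195, adjusted p = 0.130). The exception was Cell38, with 13 shared windows against 8.62 expected. With the snoRNA windows left out the percentile was 29.6 (exact p = 0.0215), and in the central 500 kb it was 47.95 (exact p = 0.736). The Meg3 region shared more, at percentile 67.7 ± 18.5 and above 50 in 8 of 10 cells (exact p = 0.0176, adjusted p = 0.122), but against tiles within 20 Mb it had 61.0 (exact p = 0.184). Within batch B18F neither passed by the exact sign-flip test over 6 cells, where p cannot go under 0.0312. The percentiles there were close to those of all cells, 22.9 for Snrpn (exact p = 0.125) and 67.1 for Meg3 (exact p = 0.0625).

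Where both files listed a window, they often gave the same position. Positions were identical within 1e-06 axis units in 466 of the 954 shared windows (48.8%). The share was lowest in the Snrpn region, 31.7% of 60, and highest in the Mest region, 62.4% of 133, while the rests of chromosomes 7 and 6 had 47.97% and 52.6%. The mean distance between the files over shared windows was 0.291 axis units for Snrpn and 0.115 for Igf2r. These means pool cells in unequal numbers of windows, and the sampled span of a cell ran from 1.2 to 4.4 axis units. Shared windows of a cell are neighbours in the same nucleus, so these shares are descriptions.

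The distance between files was measured over whole regions as the difference between the mean position in file 0 and in file 1, where each file had at least 5 windows. Snrpn had the largest mean, 0.338 ± 0.327 axis units (n = 8). It was 1.01 in Cell20, 0.546 in Cell17, 0.478 in Cell25, 0.255 in Cell39, 0.169 in Cell38, 0.138 in Cell27, 0.0668 in Cell28 and 0.0457 in Cell26. Cell20 stood highest and the lowest 3 cells were at most 0.138, so the mean rests on few cells. Relative to the median tile of chromosome 7 in the same cell, the Snrpn distance was 2.32 ± 1.55 times as large, above 1 in 6 of 8 cells.

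The Mest region followed with 0.243 ± 0.163 axis units (n = 9), from 0.0120 in Cell27 to 0.497 in Cell38, and was above the median tile of chromosome 6 in 7 of 9 cells. Meg3 had 0.198 ± 0.215 (n = 9), where 0.672 in Cell17 and 0.416 in Cell38 stood above all other cells, which reached at most 0.197. H19 had 0.169 ± 0.096 (n = 9), Peg10 0.141 ± 0.086 (n = 7) and Igf2r 0.138 ± 0.074 (n = 9). Slc38a4 had 0.118 ± 0.038 (n = 7) and Peg3 0.115 ± 0.101 (n = 10), the smallest. The medians of the rest of the chromosomes averaged 0.134 to 0.149 axis units, inside the range of every region.

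**Figure D3:**
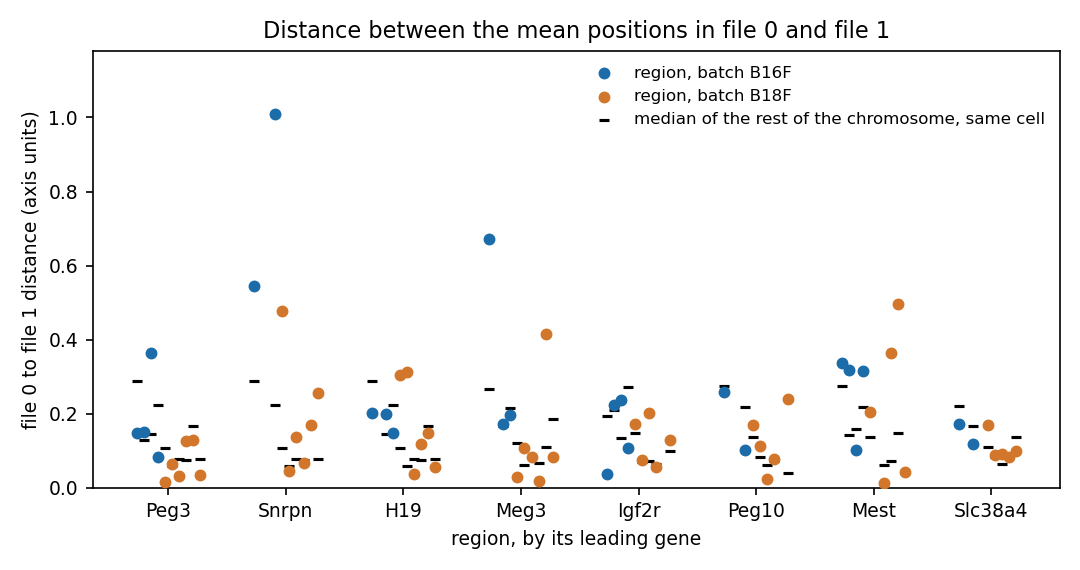
Points give the distance between a region's mean positions in file 0 and file 1 (y axis, axis units) in each cell with at least 5 windows in both files, coloured by batch, and black dashes the median of the other tiles of the same chromosome in the same cell. Snrpn reached 1.01 in Cell20 and Meg3 0.672 in Cell17, and most other points lie near their dashes.

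No region's distance between files passed the threshold: 0 of 8 had an unadjusted p under 0.05 by the exact sign-flip test, where 4.72% of 2311 tiles did. The Snrpn region had percentile 72.9 ± 25.8 with 5 cells above, 2 below and 1 at 50 (exact p = 0.0625, adjusted p = 0.973). It passed in 2 other settings, at percentile 80.0 (exact p = 0.0312) when windows listed in both files were left out, and at 80.1 (exact p = 0.0469) without snoRNA windows, chosen after the data were seen. Mest had percentile 63.6 ± 28.9 (exact p = 0.199), and the other regions lay between 41.3 (Peg3) and 56.1 (H19). With 7 cells, as for Peg10 and Slc38a4, p cannot go under 0.0156.

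Position along the axis was taken as the distance of a region's mean position from the midpoint of the positions sampled in that cell. At the unadjusted threshold 0 of 8 regions passed the exact sign-flip test, against 4.37% of tiles. Mean percentiles ran from 42.1 ± 40.4 (Peg10, n = 7) to 67.9 ± 33.1 (Slc38a4, n = 7). Slc38a4 was above 50 in 6 of 7 cells and at percentile 0 in Cell19. Without Cell19 its percentile was 79.3 (exact p = 0.0312).

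Spread within a file was the SD of the positions of a region's windows, and how far it reflects physical extent was not tested. It averaged from 0.433 ± 0.224 axis units (Slc38a4, n = 7) to 0.571 ± 0.282 (Snrpn, n = 8), and the medians of the rest of the chromosomes were between 0.506 and 0.555 on average. None of the 8 regions passed at the unadjusted threshold of the exact sign-flip test, against 5.41% of tiles. Snrpn had the highest mean percentile, 67.0 ± 20.6 (exact p = 0.0703), and Slc38a4 the lowest, 31.6 ± 26.8, below 50 in 6 of 7 cells (exact p = 0.141). The exception, Cell17, had 85.7. Without Cell17 the Slc38a4 percentile was 22.6 (exact p = 0.0312), and on grid positions alone the Snrpn percentile was 86.2 (exact p = 0.0156).

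**Figure D4:**
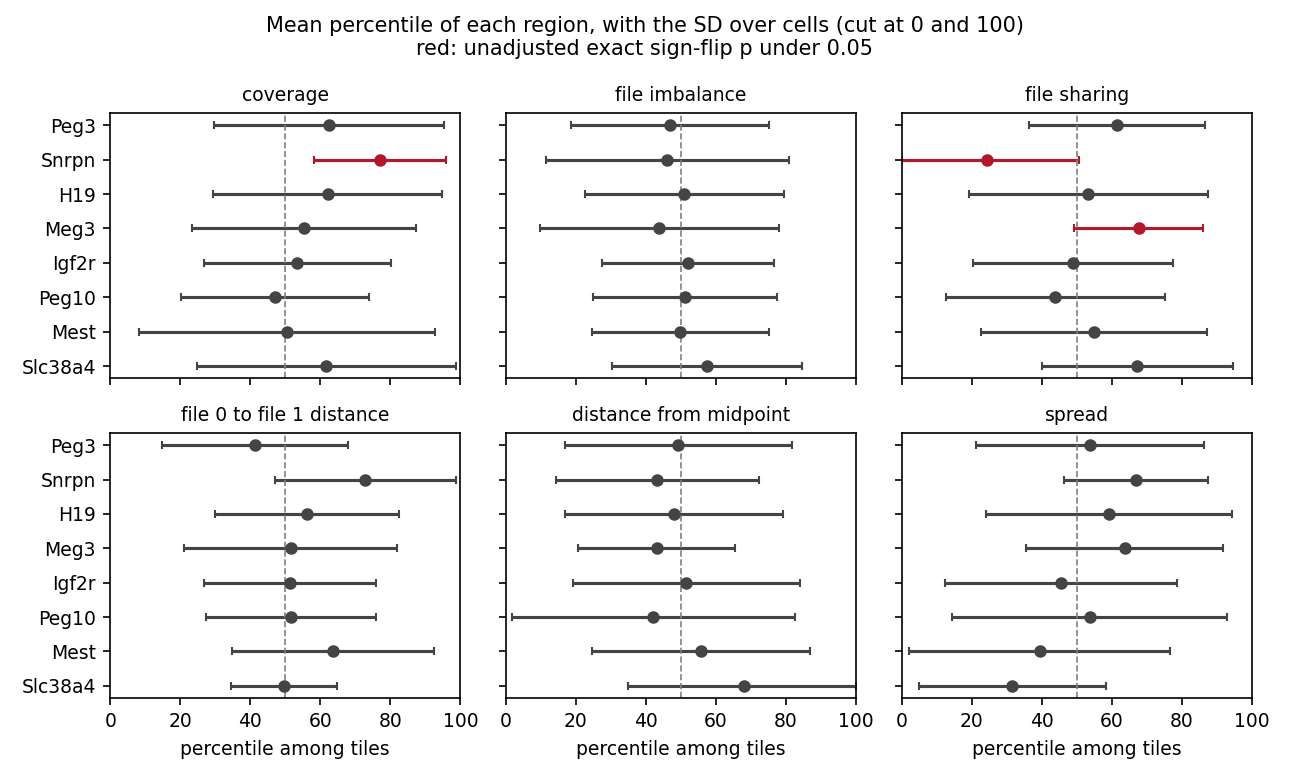
Each panel is 1 of 6 measures, with the mean percentile of each region among the tiles of its chromosome (x axis, 0 to 100, the dashed line at 50) and the SD over cells. Red marks an unadjusted exact sign-flip p under 0.05: Snrpn for coverage and Snrpn and Meg3 for file sharing.

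No tile or region had an adjusted p under 0.05 in any of the 6 measures (exact sign-flip test with Benjamini-Hochberg adjustment over all tiles). At an unadjusted p under 0.05 the 6 measures together gave 3 calls for the regions, 1 in coverage and 2 in file sharing. By measure, the share of all tiles past this threshold ran from 4.37% (distance from the midpoint) to 23.7% (file sharing). In coverage and in file sharing the count for the regions was near that background. The median over the 8 regions was 58.4 for coverage, against 50 over all tiles, with 7 of 8 regions above 50. It was 54.1 against 50.9 for file sharing, 53.8 against 49.8 for spread and 51.6 against 50.4 for the distance between files. It was 50.4 against 49.9 for file imbalance and 48.6 against 50.1 for the distance from the midpoint.

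Distances between regions were compared in 28 pairs, each ranked among pairs of tiles from the same chromosomes. The Mest and Snrpn regions ranked as far apart in every cell. Their distance was 19.8% ± 8.92 of the sampled span (n = 10), from 0.179 axis units in Cell39 to 0.662 in Cell20. Its percentile was 84.4 ± 9.55, with a lowest value of 69.0 in Cell18 (p = 0.00195 by the exact sign-flip test, which is the lowest 10 cells can give; adjusted p = 0.738).

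Mest and Igf2r were likewise far apart, at 21.2% ± 9.63 of the span and percentile 80.4 ± 18.3, above 50 in 10 of 10 cells (exact p = 0.00195, adjusted p = 0.738). Between these regions Cell26 had the smallest distance, 0.208 axis units, and Cell17 the largest, 0.894, and the percentile was 51.8 in Cell20, barely above the middle. Mest and Peg3 were past the unadjusted threshold too, at percentile 67.5 ± 23.8 with 8 of 10 cells above 50 (exact p = 0.0488, adjusted p = 0.827). Leaving out any 1 cell other than Cell19 or Cell39 ended this call (exact p from 0.0508 to 0.0977), as did position minimums of 1 or 10 windows, medians, grid positions alone, shared windows left out and batch B18F alone.

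Thus 3 of 28 pairs (10.7%) passed, all of them farther apart, where 5.88% of 168518 pairs of tiles passed in either direction and 2.85% farther. All 3 contain the Mest region, so they share its position in each cell, and the pairs are not independent. Among all pairs, 0.238% reached the smallest p, 401 in number, and 2 of the 28 region pairs did. Without windows holding snoRNA genes, Mest and Snrpn had percentile 66.0 (exact p = 0.0703), whereas Mest and Igf2r stayed at 80.7 (exact p = 0.00195).

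The closest pair in rank was Meg3 and Igf2r, at percentile 34.5 ± 34.9 and below 50 in 7 of 10 cells (exact p = 0.188). None of the pairs on the same chromosome passed the threshold, but Snrpn and Peg3 did so in 5 other settings: with at least 10 windows in each file, with shared windows left out, on grid positions alone, without Cell26 and without Cell38. Snrpn and Peg3, 53.3 Mb apart, had percentile 71.3 ± 29.6 (exact p = 0.0586), Snrpn and H19, 82.6 Mb apart, 61.8 ± 39.7 (n = 9, exact p = 0.391), and Peg10 and Mest, 26 Mb apart, 59.3 ± 35.0 (exact p = 0.418). In all, 23 of 28 pairs had a mean percentile above 50, and the median of the pairs was 59.4, against 49.95 for all pairs.

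**Figure D5:**
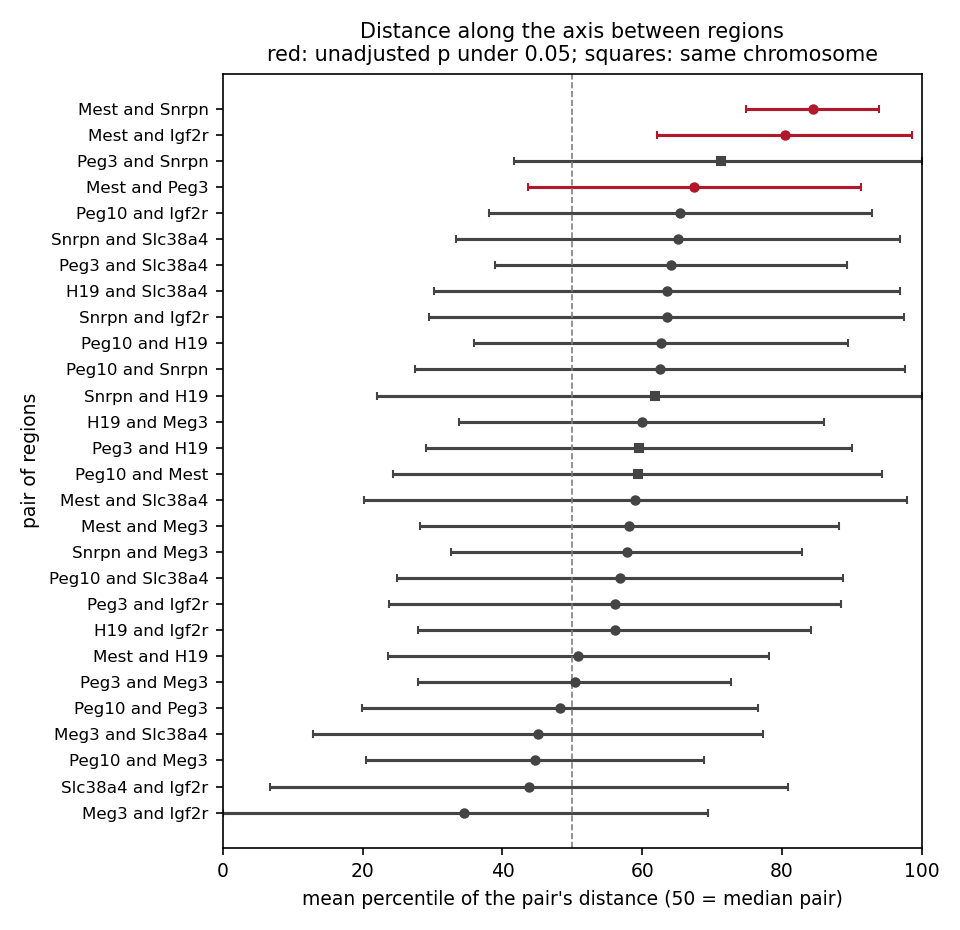
Each row is a pair of regions, with the mean percentile of its distance among pairs of tiles of the same chromosomes (x axis, the dashed line at 50) and the SD over cells, and squares mark pairs on the same chromosome. The red pairs, with an unadjusted p under 0.05, all include Mest, and the lowest pair is Meg3 and Igf2r at 34.5.

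Batches were compared over 48 combinations of region and measure. In 4 of them the exact permutation p was under 0.05, and the smallest adjusted p was 0.457. The other tiles were not compared between batches, so this count has no background share beside it. H19 coverage had a mean percentile of 34.8 in the 4 cells of B16F and 80.3 in the 6 cells of B18F (exact permutation p = 0.0286), and Meg3 coverage 29.0 and 72.7 (exact permutation p = 0.0333). Coverage of the Snrpn region was above the middle in both, 82.7 and 73.2.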

How the data were processed

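The data were 20 files of positions, a file 0 and a file 1 for each of 10 F123 cells, each cell with 7 to 23 sequenced profiles. Per the submitters' processing notes, the tools were Picard, listed without a version, Bowtie2 2.3.5 and Trim Galore 0.6.4, with mm10 as the build. The step from reads to a position per 10 kb window is not given in the sources used here. The deposited value is a position along the slicing axis, whose unit is other than a count and is not named per the file headers, and no read counts are held, so precision is known only through the number of windows and cells.

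Regions and listed genes were chosen with earlier results of these data known. Each region and each 1 Mb tile of the 19 autosomes that overlaps no region, with at least 50 of 100 windows reachable, was ranked among the tiles of its chromosome in each cell. The cell was the replicate, and whether the cells share a culture is not in the labels, so a p-value covers only the spread over these cells. Percentiles were tested with an exact two-sided sign-flip test over up to 1024 sign patterns (at least 6 cells, first set at 8 and lowered after Peg10 and Slc38a4, with 7 cells each, had no position test), with Benjamini-Hochberg adjustment over all tiles, in Python 3.11.15 and numpy 2.4.6. A position needed 5 windows in each file. For a pair of regions, distances were averaged over the files that gave both positions. Batches were compared over up to 210 splits. Genes named are those of a fixed list of imprinted clusters inside a region, all of them included in the counts. The computation was tested on simulated data. Alternatives are the settings of the closing section. The 5 controls entered no test.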

Additional observations from a re-analysis of the deposited data

Results flagged for a closer look

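Of 48 sets of cells, each set being a region and a measure, 3 held a cell far from the others. The rate by chance was taken as about 1 in 20, a set value and not one measured on these sets. The file sharing percentile of Snrpn was 87.5 in Cell38, where the other 9 cells were below 50. The Slc38a4 distance from the midpoint was at percentile 0 in Cell19. The Slc38a4 spread was at percentile 85.7 in Cell17.

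Between batches, 4 differences had an unadjusted exact permutation p under 0.05, with adjusted p = 0.457 for each over 48 comparisons. How many other tiles differ in this way was not tested. The coverage percentile in B16F minus that in B18F was -45.4 for H19 and -43.7 for Meg3. The spread percentile differed by 44.7 for Peg3 (80.7 in B16F, 36.1 in B18F, exact permutation p = 0.0381) and by -50.4 for Igf2r (17.4 and 67.8, exact permutation p = 0.0238). What a batch is, the labels do not say.

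Contigs not placed on a chromosome, which entered no comparison, were listed in a single file of every cell: in file 0 in 6 cells and in file 1 in 4. That file held 34 to 43 contigs and 206 to 440 contig windows. The file numbers therefore do not have the same makeup in all cells, which bears on every statement about file 0 and file 1 of a region.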

How the results depend on the processing

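Counts of regions past an unadjusted p under 0.05 moved by 1 or 2 of 8 under other settings. A percentage in brackets is the share of all tested tiles past that threshold in the same setting. For coverage, the count was 0 on grid positions alone and 0 with windows holding snoRNA genes left out, in place of 1; without the latter windows Snrpn crossed the middle, to percentile 48.1. For file imbalance the count was 1, in place of 0, in the central 500 kb (Meg3, 7.8%). With shared windows left out it was 2 (Mest and Slc38a4, 6.24%), and Mest then changed side, from 49.8 to 68.5. For file sharing, in place of 2, the count was 1 in the central 500 kb (Meg3, 18.9%) and 0 in batch B18F alone (12.4%). With a cell left out it was 2 to 3 (19.4% to 22.9%). Against tiles within 20 Mb it was 2 (20.4%), but Peg3 (percentile 75.5, exact p = 0.0195) took the place of Meg3. Peg3 also passed without Cell17 and Slc38a4 without Cell25 or Cell28. For the distance between files it was 1 in the central 500 kb (H19, with 3 regions testable), 1 with shared windows left out (Snrpn, with 4 testable) and 1 without snoRNA windows (Snrpn), in place of 0. For the distance from the midpoint the count was 0 to 1 with a cell left out (Slc38a4 without Cell19, 3.93%). For spread it was 1 with medians (Slc38a4), 1 in the central 500 kb (Slc38a4), 1 on grid positions (Snrpn) and 0 to 2 with a cell left out (Slc38a4 without Cell17, Snrpn and Meg3 without Cell28), in place of 0. In B18F alone the coverage count stayed 1 (7.46%), but the region was H19 (p = 0.0312, exact sign-flip over 6 cells) and no longer Snrpn (p = 0.0938). Pairs of regions past the threshold numbered 2 or 3 in all settings run, and Mest with Igf2r was among them each time; Peg3 with Snrpn passed in 5 settings, Peg10 with Igf2r with 1 window in each file and without Cell20, Peg3 with Slc38a4 without Cell28 and Mest with Meg3 in B18F. Requiring 8 cells left 6 regions testable for positions and changed no count. Of 932 alternative values that stayed short of the threshold, 162 lay on the other side of 50. Batch B16F alone cannot give p under 0.125, so it has no count. No paired analysis was possible because the replicate numbers only count profiles within a cell. The snoRNA and 8-cell settings were chosen after seeing the data.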
